A study of Mus musculus with 21 samples.

Results

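Hematopoietic stem cells (HSCs) collected on day 21 after the third administration of 5-fluorouracil (5-FU) were compared with HSCs collected on day 6 after that administration. The comparison took the RNA-sequencing libraries whose labels give 3 administrations of 5-FU, 3 libraries from day 21 and 3 from day 6, which are 6 of the 21 libraries in the series. All 6 came from the bone marrow of wild-type C57BL/6 mice labelled 10 weeks of age, which received 150 mg/kg 5-FU intraperitoneally 3 times at intervals of 21 days. Mice given PBS 3 times (3 libraries, collected on day 6 only) served as controls, and a second course with 1 administration of 5-FU (3 libraries on day 6 and 3 on day 21) and PBS once (3 libraries) was used for comparison. HSCs were sorted as Lineage-, Sca-1+, c-Kit+ (LSK), CD150+, CD48- and Flt3- cells. For the early collection after 5-FU, the study's methods left the Mac-1 antibody out of the lineage cocktail and widened the c-Kit gate to c-Kit-dim cells, so the sorting gate and the day cannot be told apart in these libraries. The replicates are described as independent experiments, and each library pooled sorted cells.

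HSCs are the cells at the top of the blood hierarchy, and most of them are quiescent in the undisturbed marrow. 5-FU is a pyrimidine antimetabolite whose products inhibit thymidylate synthase and are built into RNA and DNA, which kills dividing cells. HSCs that survive are recruited into the cell cycle to rebuild the marrow, and later return to quiescence. Entry into the cycle is driven by D-type cyclins and cyclin-dependent kinases that release E2F transcription factors, which turn on genes for DNA synthesis, and a later wave of genes carries the cell through G2 and mitosis.

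The day 6 libraries held 31358819 to 38649033 counts and the day 21 libraries 25285301 to 26745138, so the day 6 group was sequenced more deeply. The 10 most abundant genes took 6.5% to 6.77% of the counts on day 6 and 4.92% to 5.12% on day 21. A gene with 3 counts had between 0.085 and 0.118 CPM in these libraries, where CPM is the count scaled to a common library total, and a lower level could not be told from 0. All 30 genes on a list of HSC-enriched genes were measured in both groups. Cd3e, Pax5 and Rag1 (lymphocytes), Ly6g and Mmp8 (neutrophils) and Siglech (plasmacytoid dendritic cells) had no counts in any of the 6 libraries. Such genes were a minority of their lists: 9 of 25 lymphoid, 3 of 24 neutrophil and monocyte and 3 of 12 dendritic-cell markers. Other members were present in all 6 libraries, such as Gata3 (99.3 to 186 CPM), Csf3r (56.8 to 113 CPM) and Tcf4 (430 to 534 CPM). Since these are bulk samples, fewer cells expressing a gene and less RNA per cell cannot be told apart.

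Between day 6 and day 21 the genes of DNA replication and cell division fell together, and genes enriched in HSCs, antigen-presentation genes and a set of interferon-stimulated genes were higher. Of 12553 genes tested, 2450 (19.5%) passed an adjusted p of 0.05 (edgeR quasi-likelihood test), 1089 (8.68%) higher and 1361 (10.8%) lower on day 21. The counts given for each gene list below are to be read beside these shares. Changes of at least 2-fold were found for 202 genes that rose and 324 that fell. The values of the 2 groups did not overlap for 5142 genes (41% of those tested), among them all 2450 that passed the test. Without a normalization factor for library composition, 1701 genes were called higher and 977 lower, and the median of all genes moved by 0.117 on the log2 scale, so the balance of rises and falls depends on the scaling. With 3 libraries against 3, an exact permutation test of a single gene cannot give a p below 0.1, so calls rest on the fit across all genes. Leaving out day 6 replicate 3, the library whose absence cost the most calls, left 1351 genes past the threshold.

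**Figure D1:**
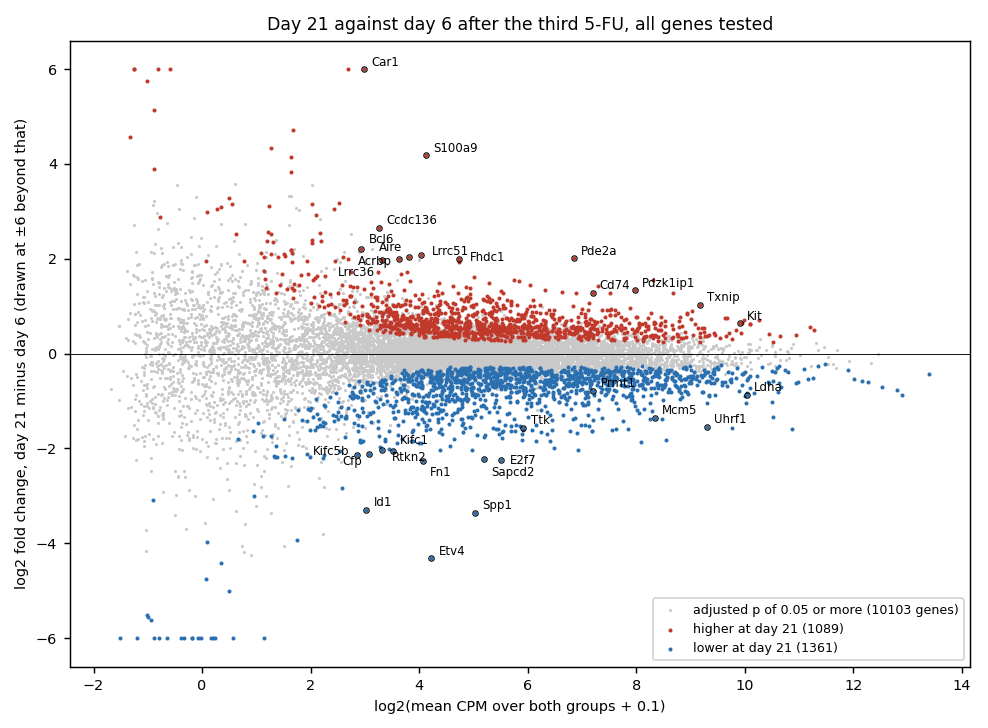
Change between day 6 and day 21 after the third 5-FU for each of the 12553 genes tested, as log2 fold change (vertical axis, day 21 minus day 6) against log2 of the mean CPM plus 0.1 (horizontal axis); red points are the 1089 genes higher and blue points the 1361 genes lower on day 21, and grey points did not pass. Etv4, at -4.32, lies farthest below among the labelled genes, and S100a9, at 4.18, lies among the highest labelled ones.

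The genes that replicate DNA were the most uniformly lower group together with those of mitosis. On the list of S phase genes, 37 of 43 fell and none rose (median log2 fold change -0.88, against 0.01 over all genes tested). Tipin, which with its partner Timeless protects replication forks, was at 523, 496 and 533 CPM in the 3 day 6 libraries and 203, 205 and 183 CPM on day 21, a 2.61-fold lower level (log2 fold change -1.39 ± 0.08, SE, adjusted p = 0.000546). Every day 21 library was also below the PBS libraries, which had 278, 266 and 270.2 CPM, but the difference from PBS did not pass the test. The values on day 21 and after PBS did not overlap for 21.4% of the genes tested between them. Mcm5, a subunit of the replicative helicase, went from 437, 438 and 523 CPM to 178, 185 and 184 CPM (adjusted p = 0.000546). Its 3 day 21 values lay within a few CPM of each other and below those of the PBS group, at 254, 231 and 215 CPM, although the difference from PBS did not pass the test (adjusted p = 0.158). Uhrf1, which recruits the maintenance DNA methyltransferase to replicated DNA, fell from 895, 835 and 1085 CPM to 295, 338 and 332 CPM (2.91-fold, adjusted p = 0.000624). Here the day 21 values overlapped those after PBS (420.0, 319 and 348 CPM).

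On the list of G2 and mitosis genes, 48 of 54 fell and none rose, with a median of -1.06. Ttk, the kinase that starts the spindle checkpoint, was at 93, 88.1 and 90.0 CPM on day 6 and 32, 30.2 and 28.9 CPM on day 21 (log2 fold change -1.57 ± 0.08, adjusted p = 0.000546). Nuf2, which attaches microtubules to the kinetochore, had 97.1, 90.9 and 84.8 CPM and 31.1, 26.9 and 31.2 CPM and was 3.05-fold lower (adjusted p = 0.000546). For both genes the day 6 and the day 21 values were each close together, and they lay far apart from each other. Mki67, the gene of the proliferation antigen Ki-67, fell from 113, 97.2 and 133 CPM to 45.1, 47.3 and 53.1 CPM (adjusted p = 0.00181), and its day 21 values lay within the range seen after PBS, 68.8, 42.2 and 63.6 CPM. Among the 10 largest falls by the rule for named genes were E2f7, an E2F repressor that is itself an E2F target (75.8, 64.5 and 85.3 CPM against 12.8, 15.4 and 19.1 CPM, 4.76-fold lower), Kifc1, a mitotic kinesin that clusters centrosomes (4.15-fold lower), its near copy Kifc5b (4.38-fold lower, with reads that may be shared between them), and Sapcd2, a regulator of spindle orientation (4.69-fold lower). Rtkn2 was 4.1-fold lower (adjusted p = 0.0181, and 0.0665 without day 6 replicate 3).

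The promoters of some of these genes are shown because the genes moved together; those printed had the smallest p on their list among the promoters with a match. Within 250 bases before the annotated start, an E2F motif (TTTCCCGC or TTTGGCGC, either strand) was found in 8 of the 31 S phase genes with a promoter in the RefSeq table (25.8%), against 1.35% of all 27025 promoters and 2.58% of the promoters of genes tested. The CHR motif TTTGAA, the cell cycle homology region, was found in 19 of 47 G2 and mitosis promoters (40.4%), against 16.3% of all. The CCAAT box (CCAAT, either strand) was found in 36 of these 47 (76.6%) and in 22 of the 31 S phase promoters (71.0%), against 34.5% of all. A match is a description of letters, not of a bound site. The sequences below, from the RefSeq table for GRCm38.p6, run from 5′ to 3′ on the gene's strand, with E2F, CHR and CCAAT matches in capitals. Mcm5 (plus strand, chr8:75109259-75109508) holds an E2F motif that begins 149 bases before the start and CCAAT boxes at 77 and 22 bases. Ttk (plus strand, chr9:83834439-83834688) holds CCAAT boxes at 65 and 28 bases, and Hmmr (minus strand, chr11:40733438-40733687) holds 5 of them. Hmmr, which encodes a spindle-associated hyaluronan receptor, fell from 38.6, 36.3 and 41.7 CPM to 9.49, 11.9 and 11.8 CPM (3.5-fold, adjusted p = 0.000546).
Mcm5: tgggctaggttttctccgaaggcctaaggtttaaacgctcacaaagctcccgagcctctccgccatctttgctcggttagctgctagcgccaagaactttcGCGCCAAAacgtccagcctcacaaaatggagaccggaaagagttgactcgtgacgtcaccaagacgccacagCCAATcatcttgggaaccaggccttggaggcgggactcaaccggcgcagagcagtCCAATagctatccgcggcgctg
Ttk: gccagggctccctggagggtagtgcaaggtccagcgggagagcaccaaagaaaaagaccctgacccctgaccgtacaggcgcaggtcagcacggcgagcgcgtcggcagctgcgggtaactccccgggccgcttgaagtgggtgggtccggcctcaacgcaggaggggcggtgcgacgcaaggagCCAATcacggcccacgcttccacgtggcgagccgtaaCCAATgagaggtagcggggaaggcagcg
Hmmr: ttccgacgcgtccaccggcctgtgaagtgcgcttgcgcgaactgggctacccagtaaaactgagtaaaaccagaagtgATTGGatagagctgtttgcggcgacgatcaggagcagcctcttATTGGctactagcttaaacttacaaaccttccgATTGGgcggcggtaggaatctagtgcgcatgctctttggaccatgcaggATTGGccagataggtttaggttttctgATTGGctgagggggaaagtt

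Some regulators of the cycle were also lower on day 21. Of 22 cyclin, CDK and inhibitor genes tested, 10 fell, 2 rose and 10 did not pass. Among those that did not pass were Ccnd2, Cdk6 and Myc (log2 fold changes of 0.07, 0.01 and 0.03). E2f1, an activator E2F, went from 80.6, 84.3 and 94.3 CPM to 36.4, 42.6 and 36.1 CPM (adjusted p = 0.00115). Ccnd1, the gene of cyclin D1, was at 61.6, 76.8 and 95.5 CPM on day 6 and 31.2, 23.5 and 34.5 CPM on day 21 (2.62-fold lower, adjusted p = 0.00449), and Cdk4, its kinase partner, fell 1.66-fold (391, 389.7 and 378 CPM against 237, 232 and 224 CPM). For each of these 3 genes no day 21 library reached the lowest day 6 library. The 2 that rose restrain the cycle. Rbl2, the gene of p130, a pocket protein of resting cells, was 1.47-fold higher (244, 209 and 194 CPM against 284, 334 and 333 CPM, adjusted p = 0.0148, and up to 0.055 without day 6 replicate 2 or 3). Cdkn1c, the gene of p57, a CDK inhibitor needed for HSC quiescence, was at 38.4, 60.2 and 61.3 CPM and 73.1, 90.2 and 89.1 CPM (1.58-fold, adjusted p = 0.0471), a call that was lost when any 1 of the 6 libraries was left out (adjusted p up to 0.117). Cdkn1a, the gene of p21, moved the other way, from 7.5, 14.2 and 12.4 CPM to 5.53, 3.69 and 2.52 CPM (adjusted p = 0.0228, and up to 0.0767 without day 21 replicate 2 or 3 or day 6 replicate 2 or 3).

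The enzymes that make nucleotides, among them the targets and activators of 5-FU, were mostly lower on day 21: 21 of 36 tested fell and 1 rose (median -0.46). Rrm2, the small subunit of ribonucleotide reductase, fell from 47.2, 43.8 and 47.4 CPM to 22.1, 19.9 and 18.6 CPM (2.27-fold, adjusted p = 0.000871). Dut, which removes dUTP, fell from 185, 178 and 178 CPM to 91.9, 83.7 and 79.1 CPM, and Tk1, the thymidine salvage kinase, from 131, 133 and 128 CPM to 41, 51.7 and 35.7 CPM (3.04-fold, the largest fall on the list). Tyms, the gene of thymidylate synthase itself, changed less: it was at 31.2, 30.1 and 28.3 CPM on day 6 and 22.2, 21.7 and 17.9 CPM on day 21 (1.44-fold lower, adjusted p = 0.0171, and 0.0557 without day 6 replicate 1). Umps, which converts orotate and 5-FU to their nucleotides, fell 1.73-fold (247, 239 and 266 CPM against 145, 143 and 146 CPM). The exception was Upp1, uridine phosphorylase, which cleaves uridine and can add ribose to 5-FU: it rose from 13.7, 20.6 and 15.6 CPM to 32.8, 39 and 30.0 CPM (2.05-fold, adjusted p = 0.00797). Day 21 replicates 1 and 3 remained below the PBS range, 68.4, 38.5 and 50.7 CPM.

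Of 44 DNA repair genes tested, 19 fell and 1 rose, with a median of -0.43. Lig1, the ligase that joins Okazaki fragments, went from 446, 388 and 485 CPM to 169, 167 and 166 CPM (log2 fold change -1.39 ± 0.10, adjusted p = 0.000546). Ung, the glycosylase that removes uracil from DNA, fell 2.39-fold (19.6, 16.8 and 19.5 CPM against 7.51, 7.2 and 8.62 CPM). Xpc, which recognises damage for nucleotide excision repair and is also a p53 target, rose 1.43-fold (34.7, 37.7 and 37.6 CPM against 52.1, 50.9 and 53.4 CPM, adjusted p = 0.00619), and every day 21 library lay above every PBS library (44.4, 48.8 and 43.1 CPM). Its difference from PBS did not pass the test. Of 34 p53 targets 7 were higher (20.6%) and 5 lower (14.7%), beside 8.68% and 10.8% of all genes tested. The falls included cell-cycle genes of the list, such as Gtse1, a G2 and S phase protein (3.29-fold lower, adjusted p = 0.000546), and the rises included Bbc3, the pro-apoptotic gene for PUMA (37.9, 31.9 and 25.8 CPM against 54.6, 58.6 and 48 CPM, adjusted p = 0.0148, and 0.0515 without day 6 replicate 2).

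**Figure D2:**
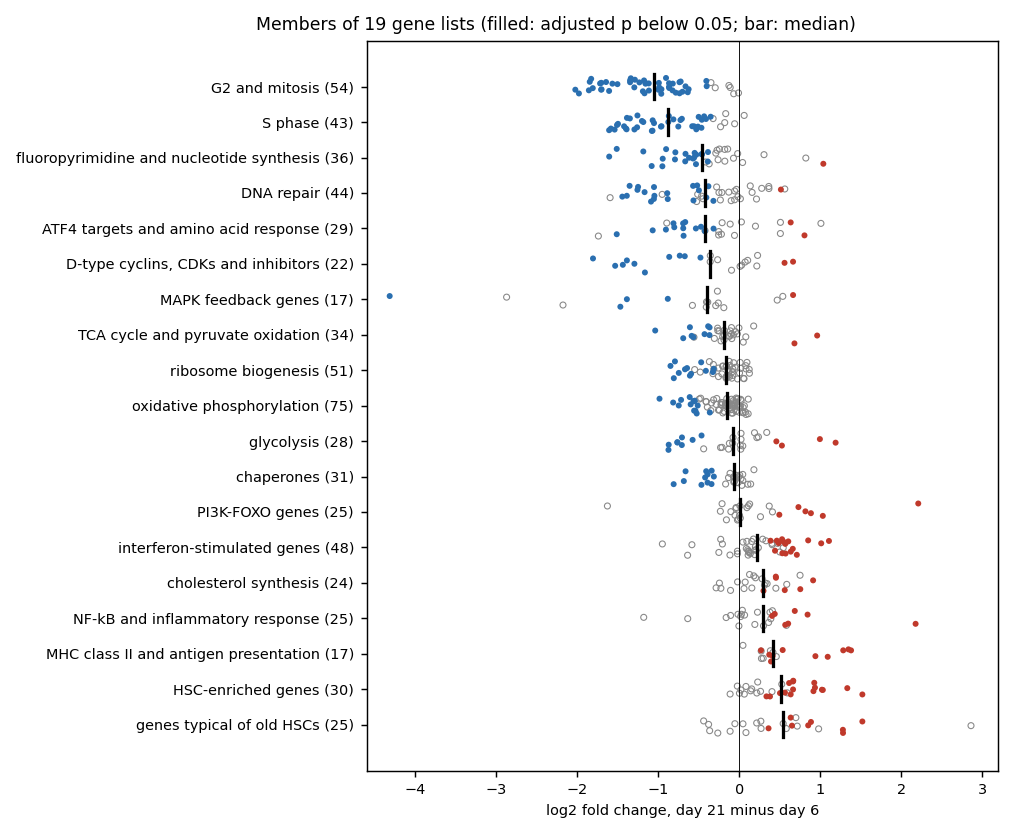
Log2 fold change between day 6 and day 21 (horizontal axis, day 21 minus day 6) for the tested members of 19 gene lists, with the number tested in brackets; filled points passed an adjusted p of 0.05, blue lower and red higher on day 21, open points did not, and the vertical bar is the list's median. The G2 and mitosis and the S phase lists lie almost wholly to the left, with medians of -1.06 and -0.88, and the HSC-enriched list has its median at 0.51.

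Several genes that respond to growth signals were lower on day 21. Etv4, an ETS factor turned on by MAP kinase signalling, showed the largest fall by the rule for named genes: it had 25.4, 27 and 53.9 CPM on day 6 and 2.8, 1.39 and 1.1 CPM on day 21 (19.9-fold lower, adjusted p = 0.00151). Day 6 replicate 3 was the highest, and the PBS libraries had 0, 0.031 and 0.96 CPM, so the gene was at or under its floor in 2 of them. Of 17 MAPK feedback genes tested, 4 fell and 1 rose. Besides Etv4 and Ccnd1, these were Etv5 (158, 172 and 250.3 CPM against 83.8, 103 and 127 CPM, adjusted p = 0.0277) and the inhibitor Spry4 (2.77-fold lower, adjusted p = 0.0174). Etv5 lost its call without day 21 replicate 1 or 2 or day 6 replicate 2 or 3 (adjusted p up to 0.0747), and Spry4 without day 21 replicate 1 or day 6 replicate 2 or 3 (up to 0.0675). Id1, an inhibitor of basic helix-loop-helix factors induced by BMP signals, fell from 13.9, 15.1 and 14.8 CPM to 0.448, 3.03 and 0.945 CPM (9.79-fold). Spp1, the gene of the secreted adhesion protein osteopontin, fell from 68.3, 49.6 and 60.2 CPM to 7.29, 7.6 and 2.32 CPM (10.3-fold, adjusted p = 0.00222), and all day 21 libraries were below those after PBS (22, 17.4 and 11.9 CPM). The difference of Spp1 from PBS did not pass the test. Fn1, the gene of fibronectin, fell from 25.1, 23.8 and 33.7 CPM to 2.35, 9.61 and 5.08 CPM (adjusted p = 0.0129). The call was lost in the fits of all 21 libraries (adjusted p = 0.0862) and with the PBS libraries (0.200). Cfp, the gene of the complement regulator properdin, was 4.36-fold lower (11.7, 15.2 and 13.9 CPM against 3.48, 2.49 and 3.35 CPM).

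The study asked how energy metabolism changes when HSCs cycle, so glycolytic and mitochondrial genes were examined. Some abundant glycolytic enzymes were lower on day 21, while members of the pathway moved in both directions: 8 of 28 fell, 4 rose and 16 did not pass, and the median of -0.08 became 0.03 without a normalization factor. Ldha, which makes lactate from pyruvate, fell from 1403, 1347 and 1324 CPM to 791, 749 and 674 CPM (1.83-fold, adjusted p = 0.00115), below all PBS values (938, 948 and 917 CPM), although the difference from PBS did not pass the test. Pkm, pyruvate kinase, fell 1.7-fold (8449, 8533 and 10134 CPM against 5268, 4967 and 5677 CPM), and Gapdh, often taken as a constant reference, 1.63-fold (531, 514 and 558 CPM against 331, 326 and 319.6 CPM, adjusted p = 0.00131). The rises were in isozymes, Eno2 (1.99-fold, adjusted p = 0.0201, and 0.0584 without day 21 replicate 2) and Aldoc (2.28-fold, adjusted p = 0.0302, and up to 0.0814 without day 21 replicate 1 or 2 or day 6 replicate 1 or 3) being the largest.

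Among the enzymes that set fructose 2,6-bisphosphate, the activator of phosphofructokinase, Pfkfb3 had 160.4, 146 and 166 CPM on day 6 and 164, 188 and 185 CPM on day 21, and did not pass the test (log2 fold change 0.19 ± 0.09, adjusted p = 0.193). It passed without a normalization factor (adjusted p = 0.0456). The groups overlapped, and the PBS libraries, at 152, 154 and 164 CPM, lay within the range of day 6. Pfkfb2 did not pass either (log2 fold change 0.34 ± 0.16, adjusted p = 0.184). Pfkfb1 went from 20.0, 22.3 and 15.3 CPM to 9.53, 13.2 and 8.62 CPM (adjusted p = 0.0249, and up to 0.0785 without day 21 replicate 1 or 3 or day 6 replicate 1 or 2), and Pfkfb4 from 8.52, 9.5 and 9.72 CPM to 12.1, 11.6 and 14.3 CPM (adjusted p = 0.0499, lost without any 1 of the 6 libraries, up to 0.141). Prmt1, the main arginine methyltransferase, which the study placed upstream of PFKFB3, fell clearly: 185, 189 and 188 CPM on day 6 and 120.1, 104 and 102 CPM on day 21 (1.72-fold, log2 fold change -0.78 ± 0.09, adjusted p = 0.00221). The groups did not overlap, and the day 21 values lay around the PBS values of 122, 117 and 112 CPM. Of the 10 arginine methyltransferase genes tested 2 fell and 2 rose (20% each), beside 10.8% lower and 8.68% higher over all genes tested. Their median of -0.05 turned to 0.06 without a normalization factor, and Prmt2 rose most (26.7, 32.4 and 22.2 CPM against 56.2, 62.9 and 64.5 CPM, adjusted p = 0.00279).

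On the mitochondrial, ribosome biogenesis and chaperone lists a minority of members fell, and on the list of ATF4 and amino acid response genes 13 of 29. In oxidative phosphorylation 14 of 75 fell (18.7%) and none rose (median -0.15). In the TCA cycle and pyruvate oxidation 9 of 34 fell (26.5%) and 2 rose (median -0.19), and in ribosome biogenesis 12 of 51 fell (23.5%) and none rose (median -0.16). Over all genes tested 10.8% fell and 8.68% rose. Atp5g3, a subunit of the ATP synthase ring, fell from 315, 328 and 317 CPM to 163, 176 and 144 CPM (1.98-fold, adjusted p = 0.00123). Pdk2, a kinase that shuts the pyruvate dehydrogenase complex, rose from 34.8, 31.5 and 28.9 CPM to 54.7, 59.8 and 70.5 CPM (1.95-fold, adjusted p = 0.00318), to the range seen after PBS (61.2, 61.1 and 60.4 CPM). Among ribosome factors, Npm1, nucleophosmin, fell from 1222, 1197 and 1216 CPM to 701, 762 and 624 CPM. For chaperones, 11 of 31 fell and none rose, although the median of -0.07 became 0.04 without a normalization factor, and Hspd1, the mitochondrial chaperonin, fell 1.75-fold (504, 496 and 532 CPM against 294, 297 and 279.7 CPM). Among the ATF4 and amino acid response genes 2 rose, and the median was -0.42. Mthfd2, the mitochondrial folate enzyme, fell from 15.7, 20.2 and 17.8 CPM to 6.47, 5.63 and 6.65 CPM (2.85-fold, adjusted p = 0.00115) and Psat1, of serine synthesis, from 194, 180.3 and 185 CPM to 98.2, 83.4 and 84 CPM (2.1-fold). Cholesterol synthesis went the other way, with 6 of 24 higher and none lower (median 0.29).

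**Figure D3:**
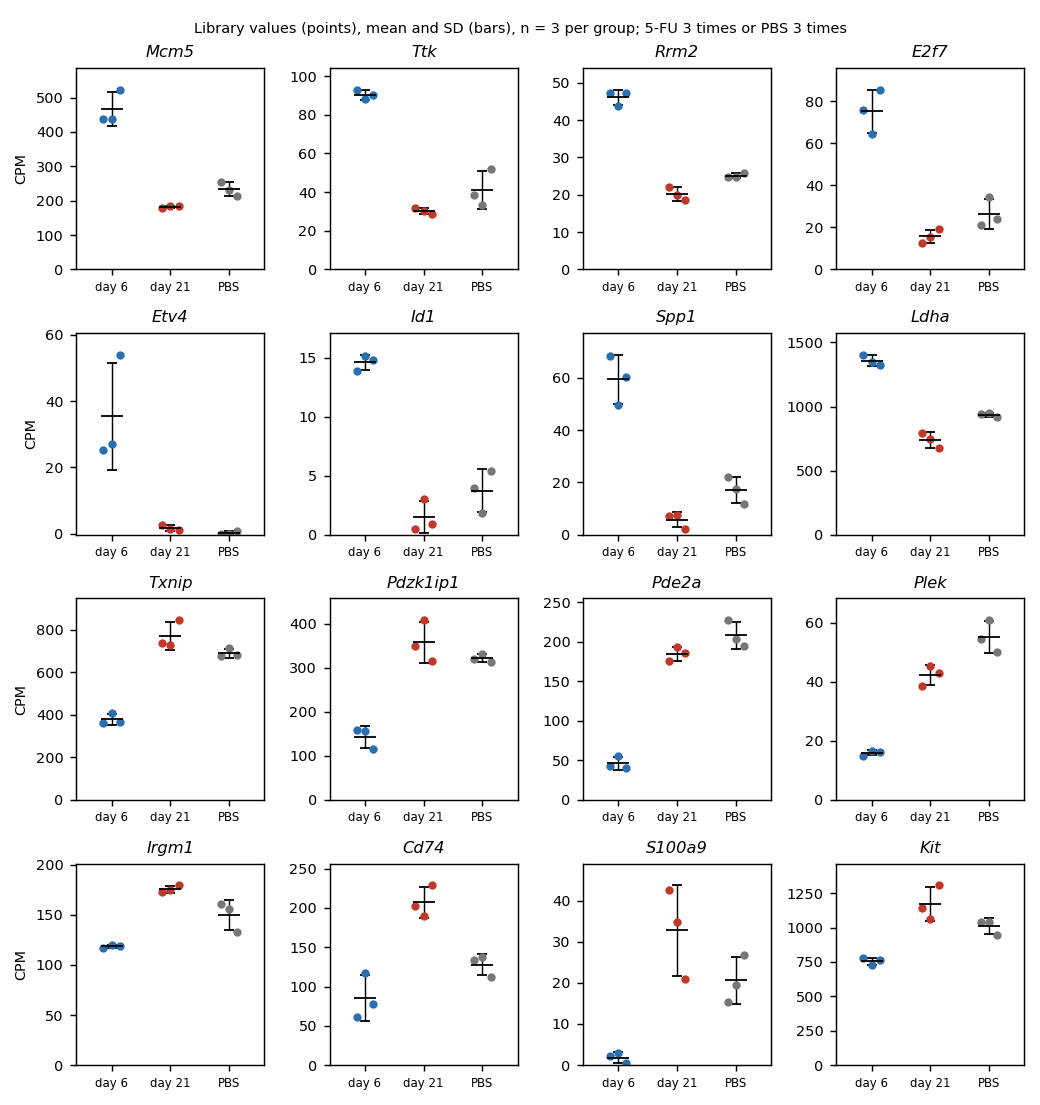
CPM (vertical axes, linear from 0) of 16 genes in the 3 day 6 and 3 day 21 libraries after the third 5-FU and in the 3 libraries after PBS 3 times; points are libraries and bars the mean ± SD. In the upper 2 lines of panels every day 21 value lies below every day 6 value, as for Mcm5, and in the lower 2 lines every day 21 value lies above, as for Txnip, at 738, 729 and 847 CPM against 360.4, 409 and 366 CPM.

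Genes enriched in HSCs were higher on day 21 than on day 6. On this list 16 of 30 rose and none fell, and the median was 0.51. Txnip, which limits glucose uptake and binds thioredoxin, rose from 360.4, 409 and 366 CPM to 738, 729 and 847 CPM (2.04-fold, adjusted p = 0.00106). All day 21 values were above those after PBS (676, 713 and 679.7 CPM), but the difference from PBS did not pass the test. Pdzk1ip1, whose regulatory region is widely used to mark HSCs, rose from 158, 156 and 115 CPM to 351, 409 and 316 CPM (2.52-fold, adjusted p = 0.00216). Procr, the gene of the HSC marker EPCR, did not pass (19.9, 23.6 and 15.1 CPM against 28.3, 27.1 and 28.5 CPM, adjusted p = 0.0559), and Hoxa9, a self-renewal factor, was level (82.3, 89.3 and 89.3 CPM against 79.9, 79.1 and 101 CPM).

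Of 25 PI3K-FOXO genes 6 rose (24%) and none fell (median 0.01), beside 8.68% higher and 10.8% lower over all genes tested. Of 17 DNA methylation and PRC2 genes 2 rose (11.8%) and 5 fell (29.4%). Pik3ip1, an inhibitor of PI3 kinase, rose from 28.8, 32 and 23.9 CPM to 51.5, 52.3 and 51.9 CPM (1.85-fold, adjusted p = 0.0034), and Bcl6, a transcriptional repressor under FOXO control, from 2.89, 3.91 and 1.3 CPM to 16.4, 8.51 and 12.3 CPM. The 2 catalytic subunits of Polycomb repressive complex 2 moved in opposite directions: Ezh2, the form of dividing cells, fell 1.89-fold (137, 118 and 129 CPM against 67.9, 73.8 and 60.3 CPM, adjusted p = 0.00228), and Ezh1, the form of resting cells, rose 1.86-fold (28, 24.3 and 22.7 CPM against 42.1, 45 and 51.8 CPM, adjusted p = 0.00362). Pde2a, a phosphodiesterase that degrades cyclic nucleotides, was among the largest rises, from 42.8, 55.4 and 40.3 CPM to 176, 194 and 186 CPM (log2 fold change 2.01 ± 0.13, adjusted p = 0.000546). Its day 21 values were below the PBS values of 228, 204 and 195 CPM, a difference that did not pass the test. Of the genes typical of old HSCs, 8 of 25 rose and none fell (median 0.54), including Clec1a, a C-type lectin (30.0, 29.5 and 22.4 CPM against 64.6, 64.7 and 68.9 CPM), and Itgb3, an integrin subunit (2.43-fold, adjusted p = 0.00927). On day 21 the list's median against PBS was -0.24, and on day 6 it was -0.79.

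Interferon-stimulated and antigen-presentation genes were higher on day 21. Of 48 interferon-stimulated genes 16 rose and none fell (median 0.22), and of 17 MHC class II and antigen-presentation genes 10 rose and none fell (median 0.41). Irgm1, an interferon-induced GTPase, was at 117, 119.7 and 119 CPM on day 6 and 173, 174 and 179.6 CPM on day 21 (1.49-fold, adjusted p = 0.0028). Rsad2, the antiviral enzyme viperin, rose from 7.97, 8.77 and 8.16 CPM to 14.1, 15 and 15.7 CPM (1.8-fold, adjusted p = 0.00358), within reach of the PBS values (15.7, 17.3 and 17.2 CPM). Cd74, the invariant chain of MHC class II, rose from 61.5, 118 and 77.3 CPM to 203, 190.3 and 229 CPM (2.44-fold, adjusted p = 0.00942), and H2-Eb1, a class II beta chain, from 4.58, 9.93 and 7.76 CPM to 17.6, 18.7 and 20.2 CPM. Ciita, the master regulator of class II genes, rose from 7.66, 26.1 and 17.3 CPM to 38.6, 46.7 and 46.9 CPM (adjusted p = 0.0412, and up to 0.117 without any 1 of the day 21 libraries or day 6 replicate 3). For the NF-kB and inflammatory response, 7 of 25 rose and none fell, among them Nfkbia, the inhibitor that the pathway itself induces (22.8, 25.1 and 22.4 CPM against 35.7, 34.6 and 36.1 CPM, adjusted p = 0.00428).

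The interferon-stimulated response element (ISRE, either strand, within 250 bases before the start) was found in 16 of 37 promoters of the interferon list (43.2%), against 3.04% of all 27025 promoters. Both promoters below are shown because their genes had the smallest p on this list among those with an ISRE, whose letters are in capitals. Irgm1 (minus strand, GRCm38.p6 chr11:48871421-48871670) has overlapping matches that begin 30 and 24 bases before the start, and Rsad2 (minus strand, chr12:26456453-26456702) has a match at 120 bases.
Irgm1: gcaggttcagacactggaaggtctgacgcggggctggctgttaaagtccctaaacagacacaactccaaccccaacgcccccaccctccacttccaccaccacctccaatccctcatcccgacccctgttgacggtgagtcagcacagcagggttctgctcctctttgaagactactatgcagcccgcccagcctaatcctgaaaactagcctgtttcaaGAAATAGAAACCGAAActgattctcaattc
Rsad2: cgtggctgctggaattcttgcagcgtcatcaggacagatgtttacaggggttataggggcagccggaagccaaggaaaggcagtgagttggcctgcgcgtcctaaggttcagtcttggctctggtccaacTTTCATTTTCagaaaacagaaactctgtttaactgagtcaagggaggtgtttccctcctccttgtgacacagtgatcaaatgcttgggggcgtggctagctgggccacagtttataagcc

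Transcripts of the sorting antigens and of other cell types also differed between the days. Kit, the gene of c-Kit, was at 778, 728 and 764 CPM on day 6 and 1142, 1063 and 1309 CPM on day 21 (1.55-fold, adjusted p = 0.00429), with no overlap. Itgam, the gene of Mac-1, was at 16, 11.2 and 7.45 CPM and 24.4, 18.2 and 22.8 CPM (adjusted p = 0.0479, and up to 0.130 without any 1 of the day 21 libraries or day 6 replicate 2 or 3). Flt3 was at 12.5, 14.9 and 8.27 CPM and 20.4, 26.1 and 22.2 CPM (adjusted p = 0.0219, and up to 0.0636 without day 21 replicate 2 or 3 or day 6 replicate 1). Kit and Itgam are antigens for which the gate differed between the days. Ly6a (Sca-1), Slamf1 (CD150) and Cd48 did not pass, with adjusted p of 0.427, 0.559 and 0.134. Of 15 neutrophil and monocyte markers tested 5 rose and none fell. All 24 listed markers summed to 111 to 156 CPM on day 6, 231 to 269 CPM on day 21 and 219 to 275 CPM after PBS. The largest parts on both days were Csf3r (56.8 to 75.7 CPM on day 6, 108 to 113 CPM on day 21) and Lyz2 (30.8 to 39.4 CPM and 42.4 to 44 CPM). S100a9 showed the largest rise on that list (2.28, 2.81 and 0.425 CPM against 42.6, 34.8 and 20.9 CPM, adjusted p = 0.00379), while 3 of the 24 listed markers had no counts in any of the 6 libraries.

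The part of these cells in the results above was not tested. The summed level of 20 megakaryocyte markers was 1290 to 1415 CPM on day 6, 1844 to 1928 CPM on day 21 and 2326 to 2614 CPM after PBS, and 6 of 18 tested rose, Plek, pleckstrin of platelets, from 15, 16.7 and 16.2 CPM to 38.5, 45.3 and 43 CPM (adjusted p = 0.000546). The 12 dendritic-cell markers summed to 611 to 634 CPM on day 6 and 769 to 837 CPM on day 21, with 3 of 8 tested higher and 1 lower. H2-Aa, on both this list and the antigen-presentation list, went from 10.7, 16.6 and 11.8 CPM to 24.7, 24.3 and 25.8 CPM. Lymphoid markers, of which 9 of 25 had no counts, summed to 205 to 216 CPM and 284 to 301 CPM, with 2 of 6 tested higher. Most of that difference was the level of the transcription factor Gata3, at 99.3, 127 and 119 CPM on day 6 and 184, 184 and 186 CPM on day 21. The T cell genes Cd3e, Cd3g and Cd8a had no counts on either day. Of 12 macrophage markers 2 fell, beside 10.8% of all genes, and of 12 stromal and endothelial markers 4 fell and none rose. All 17 stromal and endothelial markers summed to 385 to 495 CPM on day 6 and 467 to 532 CPM on day 21. Of the 12 tested, 6 had positive and 6 negative log2 fold changes. The largest parts of the sum were Pecam1 and Tek, and Tek is also on the HSC-enriched list. All 14 macrophage markers summed to 74.5 to 82.9 CPM on day 6 and 39 to 59.3 CPM on day 21. The largest part was Axl, at 53.8, 45.5 and 50.9 CPM on day 6 and 19.3, 36 and 14.8 CPM on day 21. Its call was lost in 5 of the 6 fits that left out 1 library (adjusted p up to 0.118). Adgre1, the gene of F4/80, had 0.83, 4.77 and 0.85 CPM on day 6 and no counts on day 21, at least 19-fold lower (floor of 3 counts per library, adjusted p = 0.0206, and 0.0553 without day 6 replicate 2). Lepr, a receptor of marrow stromal cells, had 4.77, 2.85 and 0.708 CPM on day 6 and none on day 21, at least 24.5-fold lower (adjusted p = 0.0131).

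Erythroid genes gave opposing signs. The beta-globin genes Hbb-bs and Hbb-bt, near-identical copies whose reads may be shared, fell from 19.5, 21.1 and 16.1 CPM to 4.75, 5.59 and 4.84 CPM and from 23.9, 24.9 and 18.8 CPM to 5.46, 7.38 and 5.83 CPM (adjusted p = 0.000746 and 0.00109). Hba-a1, an alpha-globin gene, was low throughout, with 0.338, 0.166 and 0.227 CPM on day 6 and 2.91, 0.987 and 2.4 CPM on day 21 (adjusted p = 0.0193, and up to 0.0772 without day 21 replicate 1 or 3 or day 6 replicate 2 or 3). Car1, carbonic anhydrase 1, had no counts on day 6 and 18.4, 27.6 and 1.06 CPM on day 21, at least 170-fold higher against a floor of 3 counts per library (adjusted p = 0.0217, and up to 0.0617 without day 6 replicate 2 or 3). The day 21 values of Car1 were far apart, and replicate 3 was at 1.06 CPM. Sphk1, sphingosine kinase 1, likewise had no counts on day 6 and 11.5, 20.5 and 5.91 CPM on day 21, at least 137-fold higher (adjusted p = 0.00293). All 16 erythroid markers summed to 1198 to 1219 CPM on day 6 and 1053 to 1244 CPM on day 21. Most of that was Car2, at 1031 to 1095 CPM on day 6 and 954 to 1083 CPM on day 21. Of the 13 tested, 3 were higher and 2 lower.

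By day 21 the HSCs differed from PBS-treated HSCs in few genes by this test. Of 12632 genes, 6 (0.0475%) passed, 5 higher and 1 lower, while 1725 had an unadjusted p under 0.05 and DESeq2, an alternative test, called 592. The values of the 2 groups did not overlap for 2701 genes (21.4%). None of the genes set beside PBS in the paragraphs above was among the 6 that passed. On day 6, 2310 of 12729 genes (18.1%) differed from PBS, 1253 higher and 1057 lower. Both comparisons share the PBS libraries with each other and the 5-FU libraries with the comparison above, and PBS-treated HSCs were collected on day 6 only. For the G2 and mitosis list the median against PBS was 0.80 on day 6 and -0.21 on day 21, and for the S phase list 0.61 and -0.17. For the HSC-enriched list it was -0.44 and 0.11, and for antigen presentation -0.29 and 0.20. No member of the G2 and mitosis, S phase or HSC-enriched list passed the test against PBS on day 21. Without a normalization factor the split was 6 higher and 9 lower on day 21, and 807 higher and 1462 lower on day 6.

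Gem (chr4:11704457-11714752 on mm10, by the GENCODE vM21 annotation) encodes a Ras-like GTPase that acts on calcium channels and the cytoskeleton. It was at 55.4, 71.9 and 69.1 CPM on day 6 and 21.8, 20.9 and 21.9 CPM on day 21, against 4.4, 4.13 and 4.44 CPM after PBS. The day 21 level had thus fallen from that of day 6 (log2 fold change -1.60 ± 0.12, adjusted p = 0.000556) and was still 4.96-fold above PBS (log2 fold change 2.31 ± 0.11, adjusted p = 0.00115). None of the 3 groups overlapped another, and the call against PBS held when any 1 of the 6 libraries was left out. It was lost with the replicate block (adjusted p = 0.0805), as were the calls of the other 5 genes. After a single administration the same order was seen, with 83, 79.5 and 81.2 CPM on day 6, 17.4, 14.2 and 17.7 CPM on day 21 and 6.56, 6.04 and 6.68 CPM after PBS. Arap3, a GTPase-activating protein, also lay between day 6 and PBS, at 68, 55.2 and 75.3 CPM on day 6, 33, 37.5 and 33.9 CPM on day 21 and 17.1, 16.8 and 17.2 CPM after PBS (day 21 minus PBS 1.02 ± 0.09, adjusted p = 0.0272).

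Of the other 4 genes, Neo1, Gimap4 and Plac8 had higher values in every day 21 library than in any day 6 or PBS library, and Sgsm1 was lower than after PBS. Neo1, a surface receptor reported to mark HSCs, was at 9.65, 10.8 and 9.53 CPM after PBS, 17.7, 14.5 and 19.5 CPM on day 6 and 27.3, 34.3 and 31.4 CPM on day 21 (day 21 minus PBS 1.63 ± 0.12, adjusted p = 0.0155). Gimap4, a GTPase of immune cells, was at 17.9, 21.9 and 13.4 CPM after PBS and 81.5, 86.5 and 132 CPM on day 21 (adjusted p = 0.0494), with 67.8, 69.8 and 76.5 CPM on day 6. Plac8, expressed in myeloid and other cells, was at 35.2, 33.8 and 35.5 CPM after PBS, 66.1, 44.6 and 37.3 CPM on day 6 and 94.5, 90.5 and 69 CPM on day 21 (adjusted p = 0.0494). Sgsm1, a regulator of small GTPases, had 65.1, 62.1 and 70.1 CPM after PBS, 10.6, 32.9 and 2.61 CPM on day 6 and 27.1, 25.9 and 18.5 CPM on day 21 (adjusted p = 0.0494). Its day 6 and day 21 values overlapped. Arap3 and Gimap4 lost the call against PBS when any 1 of the 6 libraries was left out (adjusted p up to 0.171 and 0.186), and Neo1, Plac8 and Sgsm1 in 5 of the 6 such fits (up to 0.138, 0.186 and 0.186).

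**Figure D4:**
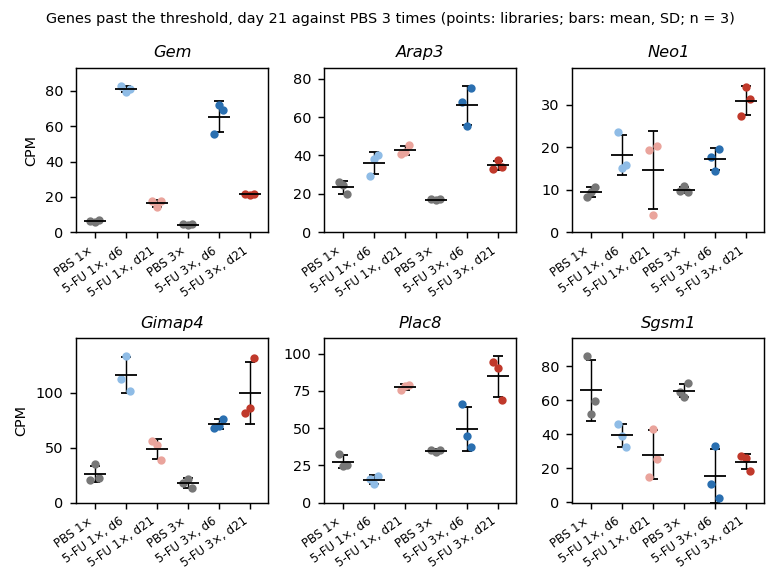
CPM (vertical axes, linear from 0) of the 6 genes that passed the test between day 21 after the third 5-FU and PBS, in all groups of 3 libraries after PBS or 5-FU given once (1×) or 3 times (3×); points are libraries and bars the mean ± SD. Gem on day 21 lies at 21.8, 20.9 and 21.9 CPM, between day 6 and PBS, and Sgsm1 is the gene below PBS, at 27.1, 25.9 and 18.5 CPM against 65.1, 62.1 and 70.1 CPM.

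The recovery after 3 administrations resembled that after 1 in direction, with few genes whose change differed by test. The 2 courses share no library. Of the 2450 genes called between day 21 and day 6 after the third 5-FU, 2298 (93.8%) had a change of the same sign after 1 administration. Their medians were 0.61 for the genes that rose and -0.64 for those that fell after 3 administrations, and 0.49 and -0.47 for the same genes after 1. Over all 13036 genes tested together, 72.1% had the same sign, and the changes correlated with a Pearson r of 0.34 and a Spearman rho of 0.56 across genes, which are not independent replicates. Medians for the G2 and mitosis list were -1.06 after 3 and -0.65 after 1 administration, and for the HSC-enriched list 0.52 and 0.26 in this joint fit. The interferon list had medians of 0.22 and -0.14 and oxidative phosphorylation -0.15 and -0.43.

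The difference between the changes passed the test for 31 of 13036 genes (0.238%), 7 with a higher and 24 with a lower value after 3 administrations, with 2165 genes at an unadjusted p under 0.05 and 714 called by DESeq2. Without a normalization factor these were 19 higher and 16 lower. The calls were sensitive to single libraries, since none remained without day 21 replicate 2 of the course with 3 administrations (1949 genes at an unadjusted p under 0.05), 1 remained without day 6 replicate 1 or 2 of the course with 1 administration, and there were 77 without day 6 replicate 2 of the course with 3. The day 6 and PBS columns of the course with 1 administration carry a suffix that the other 15 columns lack. What the suffix stands for is not stated, and whatever it marks cannot be told apart from the number of administrations for these columns. Mfsd2b, a sphingosine-1-phosphate exporter, rose after the third 5-FU from 15.6, 8.74 and 11.8 CPM to 26.1, 28.1 and 31.2 CPM, and after 1 administration from 2.61, 0.963 and 0.804 CPM to 30.3, 25.3 and 27 CPM (difference of the log2 changes -3.02 ± 0.45, adjusted p = 0.0241). Day 21 and PBS levels were alike in both courses, the PBS values being 25.6, 30.5 and 26.1 CPM and 27.1, 26.3 and 31.7 CPM, and the day 6 values were lower after 1 administration. Pde2a rose by 2.01 after the third 5-FU and 0.52 after 1 on the log2 scale, with 97.7, 87.6 and 105 CPM on day 6 and 103, 182 and 129.7 CPM on day 21 after 1 administration (adjusted p = 0.0466).

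**Figure D5:**
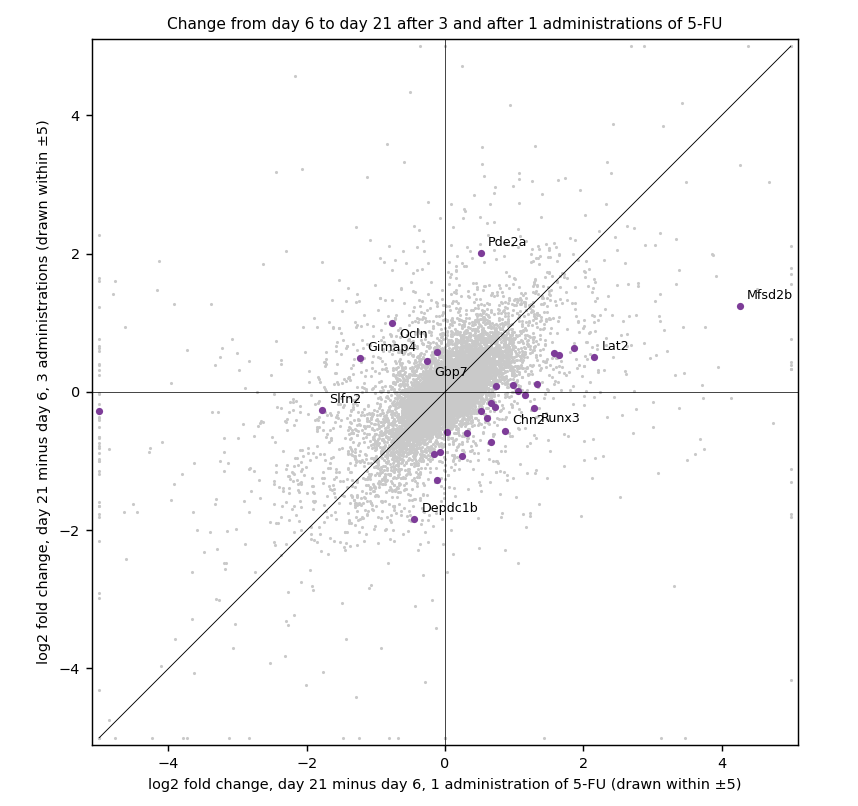
Log2 fold change between day 6 and day 21 after 3 administrations of 5-FU (vertical axis) against that after 1 administration (horizontal axis) for 13036 genes, drawn within 5 in either direction; purple points are the 31 genes whose changes differed by test, of which 10 are labelled, and the line marks equal change. Mfsd2b lies far to the right, at 4.26 after 1 and 1.25 after 3 administrations, and Gimap4 and Ocln changed in opposite directions.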

How the data were processed

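RNA was measured in sorted HSCs by RNA sequencing after SMART-Seq v4 amplification and Nextera XT library preparation. The authors deposited a table of whole-number counts per gene symbol (21000 symbols, 21 libraries), which was used as it stands. The submitters' processing notes name TopHat2 2.0.13, Cufflinks 2.2.1 and Cuffdiff with the mm10 build. The program that wrote the whole-number counts and its strand setting are not given in the sources used here, so reads of overlapping, antisense and near-identical genes cannot be told apart. Amplified reads carry no molecular identifiers, so floors cover counting error only.

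Counts were tested with edgeR 4.0.16 (R 4.3.3, limma 3.58.1): genes were kept by filterByExpr, scaled by the trimmed mean of M values (TMM), fitted by quasi-likelihood with 1 coefficient per group, and adjusted by the Benjamini-Hochberg method with a threshold of 0.05. Day 21 against day 6 used its 6 libraries. Each comparison with PBS used its own 6, and the difference between the courses an interaction term over 12. CPM values use TMM-scaled library sizes, errors of log2 fold changes are standard errors, and means carry the SD of 3 libraries. The labels do not tie libraries to animals beyond independent experiments, so p-values measure the spread between these libraries. Replicates of a group differed by more than sampling noise (variance ratios of 26.0 to 35.4 over 6 pairs).

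Genes were named by a rule: the 10 largest rises and 10 largest falls among 2233 called genes with at least 200 counts on average, no overlap of the groups and a symbol that is not a provisional or small-RNA name; a panel of 23 gate antigens and genes the study discusses; for each list the 2 called members with the smallest p in each direction, and every called member where at most 5 were called; and the 5 largest interactions in each direction. A few genes that the rule names are not reported here. Other genes in the text were chosen after their values were seen. The comparison, members and lists were chosen with earlier results of these data known. On simulated counts, edgeR recovered 85.4% of 199 genes changed 4-fold among 12373 in the comparison of day 21 with day 6, with 4.49% of its calls false (DESeq2 92.0% and 21.8%). The simulated share of changed genes was far below the 19.5% that passed in the data. Simulated counts were drawn with dispersions estimated by edgeR, so these rates may not hold for the data or rank the 2 tests. The 2450 called genes had a median absolute log2 fold change of 0.62, and recovery of changes smaller than 4-fold was not tested. DESeq2 1.42.0, other scalings, filters, the replicate block, single fits of more libraries, leaving out each library and, added after seeing the data, thinning to the smallest library total were the alternatives. Gene positions are from GENCODE vM21 and matched 20499 symbols (97.6%). Libraries from old mice entered only a single fit of all 21.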

Additional observations from a re-analysis of the deposited data

Results flagged for a closer look

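The change between day 6 and day 21 differed between the courses with 3 and with 1 administration, by the interaction test, for 10 genes named by rule. Mfsd2b differed most, with -3.02 between the log2 changes (rises of 1.25 after 3 and 4.26 after 1, adjusted p = 0.0241), and the call was lost in 6 of the 12 fits that left out 1 library. Lat2, an adaptor protein, had an interaction of -1.66 (changes of 0.50 and 2.16, adjusted p = 0.0246, lost in 8 of 12). Its day 6 values were 27.2, 36.4 and 30.5 CPM after 3 and 9.75, 8.67 and 10.4 CPM after 1 administration, and PBS values were 24.1, 31 and 19.2 CPM and 16.9, 15.3 and 14.2 CPM. Runx3, a transcription factor, had -1.51 (changes of -0.23 and 1.28, adjusted p = 0.0231, lost in 3 of 12), with 51.6, 65.5 and 73.1 CPM and 19.8, 24.1 and 24.5 CPM on day 6. Chn2, a Rac GTPase-activating protein, had -1.43 (changes of -0.56 and 0.87, adjusted p = 0.0231, lost in 5 of 12), and Depdc1b, a gene of dividing cells, -1.40 (changes of -1.84 and -0.45, adjusted p = 0.0466, lost in 11 of 12).

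Positive interactions were found for Ocln, the gene of occludin, at 1.76 (changes of 1.00 and -0.77, adjusted p = 0.0231, lost in 5 of 12), and Gimap4, at 1.73 (changes of 0.49 and -1.23, adjusted p = 0.0305, lost in 6 of 12). Slfn2, a gene of quiescent immune cells, had 1.52 (changes of -0.26 and -1.78, adjusted p = 0.0231, lost in 3 of 12). Pde2a had 1.49 (lost in 9 of 12) and Gbp7, an interferon-induced GTPase, 0.71 (changes of 0.44 and -0.27, adjusted p = 0.0466, lost in 10 of 12). For all 10 genes, day 21 replicate 2 of the course with 3 administrations was among the libraries whose absence ended the call. The day 6 libraries of the course with 1 administration differ from the others in their column suffix as well as in the course, which cannot be told apart.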

How the results depend on the processing

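The comparison of day 21 with day 6 gave 2450 calls, and 1351 to 1744 when 1 library was left out (547 to 716 higher, 804 to 1049 lower). It gave 2428 with relative log expression scaling, 2678 without a normalization factor (1701 higher), 3439 with DESeq2, 2285 with all genes of at least 1 count, 2555 with at least 10 counts in every library, 3279 in a single fit of all 21 libraries, 2810 with the PBS libraries and, added after seeing the data, 2427 after thinning to the smallest library total. Replicate numbers did not pair the libraries: deviations of same-numbered libraries correlated between -0.004 and 0.02, and with the replicate block 2071 genes were called. Against PBS on day 21 there were 15 calls without a factor, 592 with DESeq2, 0 with the replicate block (1531 at an unadjusted p under 0.05) and 1 to 4 without 1 library. Against PBS on day 6 there were 1509 with the replicate block and 1231 to 1582 without 1 library. The interaction gave 714 with DESeq2, 7 with the replicate block, 31 after thinning and 0 to 77 without 1 library.

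Of 146 called genes that were named or looked up, 98 kept their call under every alternative. Beside the losses given with each gene, the fit of 21 libraries ended the calls of Spry4, Pfkfb1, Pfkfb4, Itgam, Hba-a1, Lepr and Neo1 (adjusted p = 0.0518 to 0.169), the replicate block those of Cdkn1a and Pfkfb4 (up to 0.0706), and thinning that of Cdkn1c (0.0519). Hoxa9, near 0 (-0.12 to 0.0627 without 1 library), changed sign to -0.00546 with the replicate block (adjusted p = 0.974), -0.12 without day 21 replicate 3 (0.415), -0.04 without day 6 replicate 1 (0.889) and -0.00278 in the fit of 21 libraries (0.993). The sign of 6 list medians, all within 0.1 of 0, changed without a normalization factor. Depth limits genes under about 0.118 CPM. The causes of these differences were not tested.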

Other observations

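Lists outside the main themes gave mixed counts, beside 8.68% higher and 10.8% lower over all genes tested. Of 29 antioxidant genes 3 rose and 2 fell, with a median of -0.08 that became 0.03 without a normalization factor. Gstm1, a glutathione transferase, rose from 144, 156 and 133 CPM to 269, 246 and 265 CPM (adjusted p = 0.00144), while Slc7a11, the cystine importer, fell from 24.2, 24 and 23 CPM to 13.7, 14.5 and 15.8 CPM (adjusted p = 0.00407). Of 30 autophagy and lysosome genes 5 rose and 2 fell, Ulk1, the kinase that starts autophagy, rising from 105, 88 and 101 CPM to 161, 155 and 188 CPM (adjusted p = 0.00438) and Ctss, cathepsin S, falling from 19.7, 16.7 and 16.5 CPM to 9.01, 11 and 7.56 CPM. Of 24 adhesion and CXCL12 axis genes 5 rose and 3 fell. The integrin subunits that form LFA-1 fell together, Itgal from 63.2, 66.7 and 80.1 CPM to 30.5, 17.9 and 18.1 CPM (adjusted p = 0.00379) and Itgb2 from 36.8, 36.8 and 36.7 CPM to 21.3, 22.5 and 23.1 CPM (adjusted p = 0.00205). Itga2b, the gene of CD41, rose 1.48-fold. Of 21 TGF-beta pathway genes 4 rose and 2 fell, among them Smad7, an inhibitor of the pathway (2.86, 4.83 and 4.19 CPM against 8.63, 8.88 and 9.84 CPM, adjusted p = 0.0133), and Ltbp3, which binds latent TGF-beta (23.7, 24.5 and 21.6 CPM against 40.1, 38 and 45.7 CPM, adjusted p = 0.00279).

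Of 17 DNA methylation and PRC2 genes 2 rose and 5 fell, with a median of -0.08 that became 0.03 without a normalization factor. Tet2, a 5-methylcytosine oxidase, rose from 38.6, 43.3 and 39.1 CPM to 57.4, 65.7 and 54.3 CPM (adjusted p = 0.0114). Of 21 HIF targets 1 rose (4.76%) and 3 fell (14.3%), and of 14 BCL2 family genes 1 rose (7.14%) and 2 fell (14.3%). These shares were near those over all genes tested, 8.68% higher and 10.8% lower. Of 24 immediate early genes 5 rose and 2 fell, and of 4 mast cell, basophil and eosinophil markers tested none passed. Bcl2l1, the gene of BCL-XL, fell from 278, 293 and 341 CPM to 168, 165 and 172 CPM (adjusted p = 0.00206). In the panel of named genes, the heme oxygenase gene and a pair of NRF2 target genes did not pass (Hmox1, adjusted p = 0.359; Nqo1, 0.635; Gclm, 0.444), nor did Hoxa7 (0.249) or Cd34 (0.216).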
